A study of Mus musculus with 42 samples.

Results

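The genes described are the numbered cadherins (Cdh plus a number) and the protocadherins (Pcdh plus any suffix) of the mouse array, with Cdh5 left out. Their probes were found by the gene name that the scanner files give to each probe, and a probe was kept when the scanner marked it well above background in every one of the 3 arrays of some group and tissue. This gave 76 probes of 50 genes, out of 116 probes of 67 such genes on the array and 41174 probes of 27398 gene symbols in all. The other 40 probes were not well above background throughout any set, and 17 of the 67 genes had no probe left. The members fell into 7 probes of type I classical cadherins, 10 of type II classical cadherins, 4 of other cadherins, 5 of alpha, 20 of beta and 9 of gamma protocadherins, and 21 of non-clustered protocadherins. Of the 76 probes, 44 passed in both tissues, 31 in aorta only and 1 in skeletal muscle only.

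RNA of aorta and skeletal muscle was measured in 3 mice of each of 7 groups, all male and aged 18 to 20 weeks at the start, which gives 42 single-colour arrays. Group G was healthy C57BL/6 mice and group A was KK/Ay mice, an inbred strain with the yellow agouti allele that becomes obese and diabetic, both given saline by gavage for 8 weeks. Group C, the model of diabetic macroangiopathy, was KK/Ay mice fed a high-fat diet for 8 weeks with L-NAME (which blocks nitric oxide synthase) in their water, and then given saline for 8 weeks. Groups B, D, E and F had the diet and L-NAME of group C and then 8 weeks of gavage with SHENQI compound, a mixture of Chinese medicines, with its yangyinyiqi formula, with its huoxue formula, or with rosiglitazone, an agonist of the nuclear receptor PPAR gamma. Group G differs in strain from every other group, so the strain and the diabetes cannot be told apart. The labels give the tissue as a whole, and in such a sample fewer cells of a type and less RNA per cell cannot be told apart either.

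Cadherins are membrane proteins that hold neighbouring cells together by calcium-dependent contacts between their extracellular repeats. The cytoplasmic tails of the classical cadherins bind catenins and through them actin. Protocadherins lack that link. The alpha, beta and gamma protocadherins stand in gene clusters, in which many variable exons each have a promoter of their own, and they are best known from neurons, where they give cells distinct surface identities.

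The repeats of both families are joined by short stretches that bind calcium, and a stretch of this kind, with the residues Asp, any, Asn, Asp, Asn, any and Pro, is coded within 3 of the 76 member probes. These 3 are shown because they place the measured sequence inside the domain that defines the family. The sequences are those the scanner files give for each probe, with positions in mm9, and the capitals mark the codons of the stretch.
Cdh11, probe A_52_P683146, chr8:105191906-105191965, minus strand: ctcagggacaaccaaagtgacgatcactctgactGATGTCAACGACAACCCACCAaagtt
Cdh4, probe A_52_P181943, chr2:179581965-179582024, plus strand: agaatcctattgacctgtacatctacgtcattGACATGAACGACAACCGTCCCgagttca
Pcdh19, probe A_51_P348232, chrX:130220413-130220472, minus strand: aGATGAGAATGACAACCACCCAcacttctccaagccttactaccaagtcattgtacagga
Searched on the printed strand of all 41174 probes, codons of this stretch occurred in 5 probes (0.0121%), and on the other strand in 0. The other member probes are identified by name only. Several cannot be tied to 1 gene. The 3 probes labelled Pcdhac2 lie in the exons that all alpha genes share, and the probe labelled Pcdha4-g and 3 of the 4 labelled Pcdhga9 (A_51_P470769, A_51_P474518 and A_52_P667913) lie in those that all gamma genes share. This assignment rests on their positions and on general knowledge of the clusters, since no exon annotation was used. Probes A_51_P470769 and A_51_P474518 overlap by 40 bases and the 2 probes of Pcdhb15 by 20 bases, so they are not separate measurements. The beta genes are close copies of each other, and cross-hybridization between them was not tested.

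Between 23840 and 30274 probes per aorta array were well above background (median 28166) and between 20200 and 26844 per skeletal muscle array (median 23902). Of the 76 members, 50 to 75 passed on an aorta array (median 70) and 31 to 54 on a skeletal muscle array (median 43). The arrays lie on 11 slides, and the 12 arrays of slides 1 to 3 stood apart, as was seen after the data were examined. They hold all skeletal muscle arrays of groups E and F, replicates 1 and 3 of aorta and 1 and 2 of skeletal muscle of group G, and replicate 1 of aorta of groups A and B. With the difference of these slides from the others as a term over all 42 arrays, 25% of all probes and 16 of the 76 members passed an adjusted P value below 0.05, 7 of them lower and 9 higher on slides 1 to 3. Pcdhb6 was 1.34 lower there on the log2 scale (SE 0.13, limma, adjusted P = 7.13e-09), with a log2 intensity between 5.51 and 6.32 on those 12 arrays and between 6.67 and 7.78 on the other 30. Pcdh1 was 1.35 higher there (SE 0.18, adjusted P = 1.7e-06), at 10.53 to 11.45 against 8.65 to 10.08. For these 2 probes the slides did not overlap in either tissue, whatever the group. Replicate 1 of healthy aorta also stood apart. Its summed smooth muscle markers (6 genes, 12 probes) were at 14.77 on the log2 scale against 17.46 and 18.46 in the other 2 healthy aortas and 17.15 to 19.40 in the 18 KK/Ay aortas, and its summed lymphocyte markers were at 14.14, above those of the other 20 aorta arrays (9.86 to 13.71). The main counts and calls are also given without these arrays or with the slides as a term, though not every change is listed. Leaving out slides 1 to 3 leaves 1 healthy array in each tissue. In the comparisons of groups the slide term is added to a fit of 14 group and tissue means over all 42 arrays.

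Most members differed between the tissues. Of the 76 probes, 61 passed an adjusted P value below 0.05 in a fit over all 42 arrays with group as a term, 45 of them higher in aorta and 16 higher in skeletal muscle, where 75.3% of all probes passed. The median difference of the members was 0.37 on the log2 scale and that of all probes 0.03. The split is partly set by the choice of members, since 31 of them were kept through aorta alone, and of these 25 were called higher in aorta. Among the 44 that passed in both tissues, 20 were called higher and 14 lower in aorta, with a median of 0.14, and 75.7% of all 23614 such probes were called. With the quantile normalization done within each tissue in place of all 42 arrays, 61 probes again passed but 35 of them were higher in aorta, a share of 57.4% against 73.8%, so the split depends on the scaling. Of the 12 beta probes that passed in both tissues, 9 were called higher in aorta and none lower, and with scaling within tissue 11 and none. Of the 4 type II probes that passed in both, 3 were higher in aorta, and all 4 such type I probes were higher in skeletal muscle. The other 8 beta, 6 type II and 4 of the 5 alpha probes were members through aorta alone, so their direction is no finding. Within-tissue scaling turned the direction of 8 of the called probes, among them Pcdhb10, Pcdhb13 and 1 probe each of Cdh18 and Cdh20.

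The alpha probes are described with that limit. The shared-exon probe A_52_P404535, labelled Pcdhac2, ranged from 6.55 to 10.79 over the 21 aorta arrays with a median of 8.95, and from 5.55 to 6.49 over the 21 skeletal muscle arrays with a median of 5.96. The tissues did not overlap, and the aorta arrays differed widely among themselves, within every group. This probe was well above background on 21 of 21 aorta and only 3 of 21 skeletal muscle arrays, so the fitted difference of 2.91 (SE 0.25, adjusted P = 3.55e-13) is set against a level that is mostly not above background. Probe A_51_P488953 of these exons was well above background on 0 of 21 skeletal muscle arrays and was at least 5.03-fold higher in aorta. Probe A_52_P632669 passed in both tissues, on 17 of 21 skeletal muscle arrays, and was 1.59 higher in aorta (SE 0.20). Pcdh7, a non-clustered protocadherin first described in brain and heart, differed by 2.19 (SE 0.18) and 1.91 (SE 0.15) in its 2 probes. Probe A_51_P260740 of Pcdh7 lay between 7.04 and 9.45 in aorta and between 5.71 and 7.25 in skeletal muscle, and the ranges touched only through the lowest aorta, a healthy one. Cdh2, the N-cadherin of nerve, heart and smooth muscle, lay between 5.84 and 7.96 in aorta. In skeletal muscle it lay between 5.0 and 5.73, where it was well above background on 0 of 21 arrays, so it was at least 2.51-fold higher in aorta (log2 difference 1.53, SE 0.12).

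On the side of skeletal muscle stood Cdh4, Cdh22 and Cdh15. Cdh4, the R-cadherin found in retina and in developing muscle, was higher in skeletal muscle in all 3 of its probes, with log2 differences of aorta minus skeletal muscle of -2.02 (SE 0.12), -1.19 (SE 0.08) and -1.11 (SE 0.09). Probe A_52_P402897 of Cdh4 lay between 5.69 and 7.02 in aorta and between 8.29 and 9.17 in the KK/Ay skeletal muscles, while the 3 healthy skeletal muscles had 7.38, 8.38 and 6.11. Cdh22, a type II cadherin known from brain, differed by -1.59 (SE 0.15) and was the 1 type II probe on this side. Cdh15, the M-cadherin of satellite cells and myoblasts, differed by -1.34 (SE 0.26). The probe labelled Pcdha4-g, in the exons shared by gamma genes, differed by -1.16 (SE 0.09), although the other 3 shared-exon gamma probes were higher in aorta, by 1.4 (SE 0.13), 1.01 (SE 0.11) and 0.77 (SE 0.11). Probes assigned to the shared gamma exons therefore disagreed in direction. They do not lie at 1 place: Pcdha4-g starts at 37984662 on chromosome 18, and the other 3 lie between 37999725 and 38001435.

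**Figure D1:**
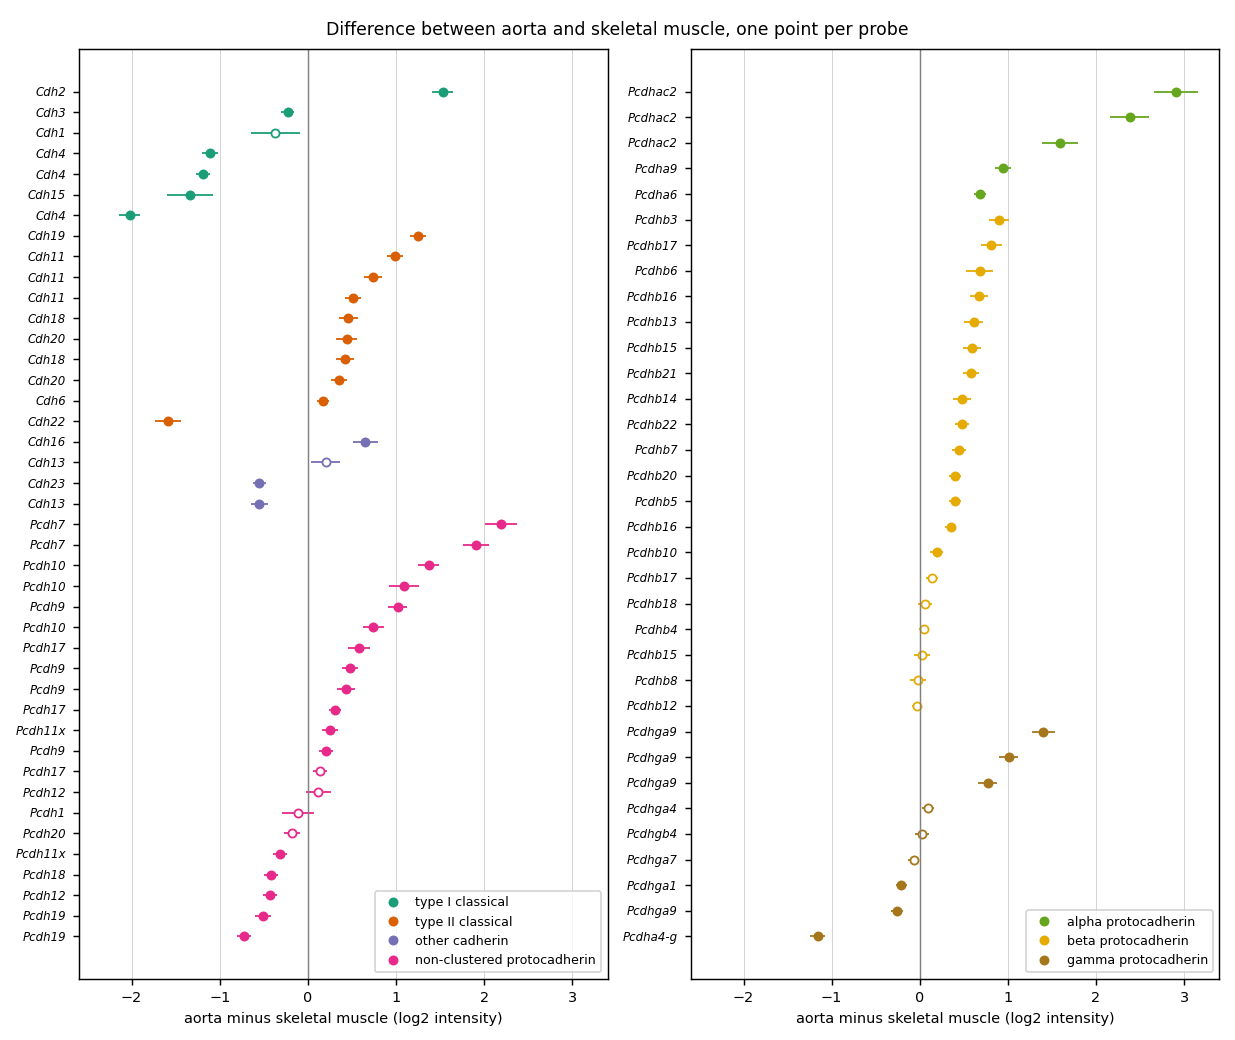
The difference of aorta minus skeletal muscle on the log2 scale for each of the 76 member probes, grouped and coloured by subfamily, as fitted over 42 arrays with group as a term; bars are 1 SE and filled points passed an adjusted P value below 0.05. Of the points farthest to the right, 3 are alpha probes labelled Pcdhac2, 2 of them not above background throughout any skeletal muscle set, and 2 are of Pcdh7, while the 3 of Cdh4 with Cdh22, Cdh15 and Pcdha4-g lie farthest to the left.

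The comparisons of groups A and C with healthy group G ask how diabetes alone and the macroangiopathy model differ from healthy mice, and both use the same 6 arrays of group G. Each fit used 12 arrays and a term for tissue. In A vs G, 5 of 59 member probes passed an adjusted P value below 0.05, 4 higher and 1 lower in A, where 4.66% of all probes passed. At an unadjusted P value below 0.05, 25 of 59 passed (20 higher), where 21.8% of all probes did. In C vs G, 6 of 76 passed, all higher in C, where 5.61% of all probes passed, and 27 (22 higher) at the unadjusted threshold, where 25.5% did. The median difference over the members was 0.23 in A vs G and 0.18 in C vs G, against 0.03 and 0.02 over all probes. In 9 of 59 members (8 higher) the arrays of A and G did not overlap in either tissue, where 6.49% of all probes had no overlap in the same direction, and in C vs G in 11 of 76 (9 higher), where 7.91% did. Without the arrays of slides 1 to 3, 8 of 59 members passed in A vs G (7 higher), with 8.23% of all probes, and 8 of 76 in C vs G (all higher), with 5.65%.

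Cdh11 stood first in both comparisons by its P value among the members. It codes for a type II cadherin of mesenchymal cells, first known from osteoblasts and prominent in fibroblasts. In aorta, its probe A_52_P683146 had log2 intensities of 9.68, 9.97 and 9.76 in group G, 11.39, 11.26 and 11.04 in group A and 11.48, 11.48 and 11.50 in group C. The 3 healthy aortas lay below every KK/Ay aorta, treated or not, whose 18 arrays lay between 11.01 and 12. In skeletal muscle the values were 9.17, 9.40 and 9.33 in G, 10.57, 10.42 and 10.56 in A and 10.44, 10.34 and 10.52 in C. Here too groups A and C lay above G without overlap, while over all 18 KK/Ay arrays the lowest, 1 of group E, was at 9.40 and met the highest of G. The difference was 1.32 in A vs G (SE 0.12, 2.50-fold, adjusted P = 5.85e-05) and 1.41 in C vs G (SE 0.13, 2.65-fold, adjusted P = 7.99e-05). Without slides 1 to 3 it was 1.18 and 1.31, and it passed in both. On slide 3, which holds aortas of both groups, A was 1.67 higher than G. Groups C and G share no slide.

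The other 2 probes of Cdh11, which lie nearer its 3′ end, did not follow. Probe A_51_P506204 differed by 0.25 in A vs G (SE 0.15, adjusted P = 0.356) and 0.37 in C vs G (SE 0.17, adjusted P = 0.192). Probe A_52_P437795 had values of 5.98, 5.57 and 5.92 in group A and 6.62, 6.13 and 6.30 in group G in skeletal muscle, so A lay below G there without overlap, and in aorta 6.79, 6.74 and 6.63 in A against 6.56, 6.39 and 5.92 in G. This probe was well above background on only 4 of 21 skeletal muscle arrays. In aorta alone it was 0.62 higher in C than in G (SE 0.21, adjusted P = 0.0345). Between A and G the 3 probes thus pointed the same way in aorta and not in skeletal muscle.

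**Figure D2:**
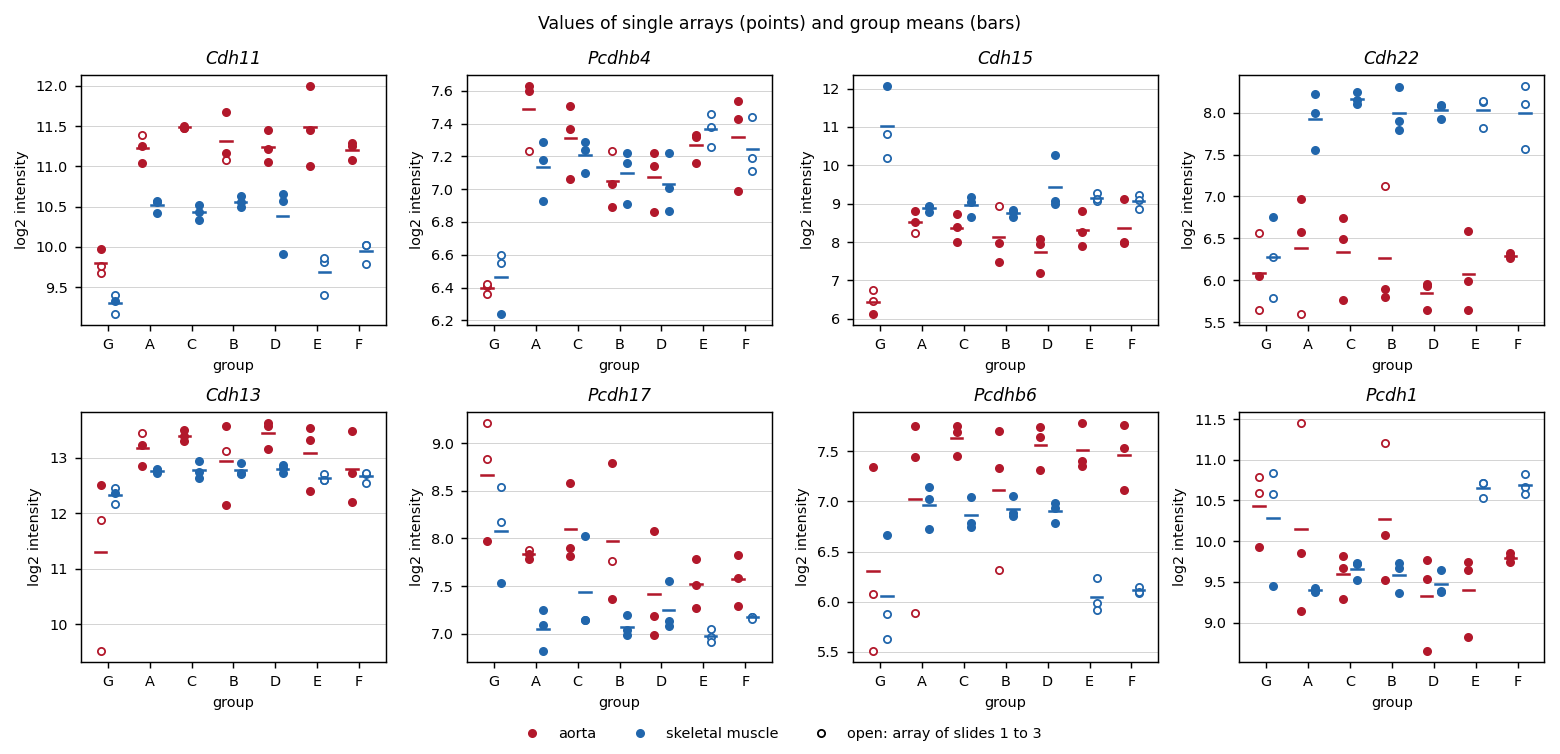
The log2 intensity of 8 member probes on each of the 42 arrays, by group (horizontal axis) and tissue (colour), with short lines at the means of 3; open symbols are arrays of slides 1 to 3. Cdh11 and Pcdhb4 lie lower in group G in both tissues, Cdh15 has a lower mean in G in aorta and a higher one in skeletal muscle, Cdh22 lies lower in G in skeletal muscle only, and Pcdhb6 and Pcdh1 follow the open symbols.

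Cdh15 differed in opposite directions in the tissues. In aorta it was at 6.45, 6.13 and 6.74 in group G, at 8.24, 8.53 and 8.81 in A and at 8.40, 8.72 and 8.01 in C. In skeletal muscle it was at 10.20, 10.81 and 12.07 in G, at 8.94, 8.79 and 8.91 in A and at 8.66, 9.04 and 9.17 in C. The groups did not overlap in either tissue, and all 18 KK/Ay aortas (7.20 to 9.12) lay above the 3 healthy ones. The gap between the tissues was accordingly narrower in KK/Ay mice. With tissue as a term the average difference was -0.03 in A vs G (SE 0.66) and -0.06 in C vs G (SE 0.64), neither of which passed, so the values within each tissue are given. In a fit of 14 group and tissue means over all 42 arrays, Cdh15 was 2.09 higher in A than in G in aorta (SE 0.38, adjusted P = 0.000361) and fell by 2.15 in skeletal muscle (SE 0.38, adjusted P = 0.000253). In C vs G it was 1.94 higher in aorta (SE 0.38, adjusted P = 0.000613) and fell by 2.07 in skeletal muscle (SE 0.38, adjusted P = 0.000446). The difference between the tissues itself was 4.01 in C vs G (SE 0.57, adjusted P = 0.045), where 1 of 76 members and 0.0886% of all probes passed the interaction test. In A vs G it was 4.24 (SE 0.55, adjusted P = 0.0615), where 0 of 59 members and 0.0039% of all probes passed. Without slides 1 to 3 the interaction was 5.37 in C vs G and 5.74 in A vs G. That fit leaves 1 healthy array in each tissue, in skeletal muscle the highest of the 3, and assumes that it varies like the other groups. The list read for satellite cells includes Des (the muscle filament desmin), Pax7 and Megf10. These differed by -4.72, -1.05 and 0.14 in aorta minus skeletal muscle. Intensities were summed unlogged, so a bright gene such as Des can set the sum, which does not stand for satellite cells alone. The sum was at 13.11, 13.48 and 14.88 in the 3 healthy skeletal muscles, in the same order as Cdh15, and at 13.67 to 14.25 in the KK/Ay skeletal muscles. The part of these genes in the result was not tested.

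Cdh22 and Cdh4 were higher in KK/Ay mice in skeletal muscle. Cdh22 was at 5.79, 6.28 and 6.75 in group G, at 8.0, 7.55 and 8.22 in A and at 8.10, 8.25 and 8.15 in C. All 18 KK/Ay skeletal muscles (7.55 to 8.32) lay above the healthy ones, while in aorta the healthy arrays (5.65 to 6.56) lay within the range of the KK/Ay arrays (5.60 to 7.12). In the fit within skeletal muscle Cdh22 rose by 1.65 in A vs G (SE 0.33, adjusted P = 0.000938) and by 1.89 in C vs G (SE 0.33, adjusted P = 0.000217). Cdh4 probe A_52_P402897 was at 7.38, 8.38 and 6.11 in G, 8.97, 9.01 and 8.58 in A and 9.02, 8.29 and 8.47 in C, so C overlapped with G and A did not. It rose by 1.56 in A vs G (SE 0.30, adjusted P = 0.00068) and by 1.30 in C vs G (SE 0.30, adjusted P = 0.00477). In aorta all 18 KK/Ay arrays of this probe (6.30 to 7.02) lay above the healthy ones (5.69 to 6.22). In aorta alone it was not called in A vs G (0.70, SE 0.30, adjusted P = 0.116). With slides 1 to 3 as a term it was called there in A vs G (0.84) and C vs G (1.15), with 16.4% and 14.5% of all probes. For Cdh4 probes A_51_P238455 and A_52_P181943 the healthy aortas lay within the KK/Ay range. Neither gene passed in the fit over both tissues with a term for tissue. Both were called over both tissues in the fit of 14 means with slides 1 to 3 as a term. There Cdh22 was at 0.9 in A vs G and 0.98 in C vs G, and this probe of Cdh4 at 1.35 and 1.37. In that fit 19.8% and 13.3% of all probes passed. Over both tissues and without slides 1 to 3, this probe of Cdh4 differed by 1.77 in A vs G and 1.62 in C vs G, and Cdh22 by 0.96 and 0.85. That fit leaves 1 healthy array in each tissue. In skeletal muscle it is the lowest of the 3 for this probe of Cdh4 (6.11) and the highest for Cdh22 (6.75).

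Within skeletal muscle 8 of 43 members passed in A vs G (6 higher, with 9.81% of all probes) and 6 of 42 in C vs G (5 higher, with 8.62%). Besides those named, they were the other 2 probes of Cdh4 in A vs G (0.85 and 0.71), 1 of them in C vs G (0.78), Cdh11 (1.22 and 1.13), Pcdhb4 (0.67 and 0.75) and Pcdh17 in A vs G (-1.03). Within aorta 13 of 54 members passed in A vs G (12 higher, with 14.2% of all probes) and 21 of 74 in C vs G (all higher, with 19.6%). Leaving out replicate 1 of healthy aorta brought these to 6 of 54 (5 higher, with 7.79% of all probes) and 11 of 74 (all higher, with 11.7%). Cdh11, Pcdhb4, Pcdhb16, Cdh13 and Cdh15 passed in both comparisons also without that array.

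Cdh13, the T-cadherin, lacks a cytoplasmic tail, is held to the membrane by a lipid anchor and binds adiponectin on endothelial and smooth muscle cells. In aorta its probe A_51_P114826 was at 9.52, 12.50 and 11.87 in group G, at 13.44, 12.85 and 13.23 in A and at 13.30, 13.39 and 13.49 in C. Groups A and C lay above G, and replicate 1 of G lay far below the other 2. In aorta alone Cdh13 was 1.88 higher in A (SE 0.42, adjusted P = 0.00278) and 2.09 higher in C (SE 0.42, adjusted P = 0.000763), and without that array 0.99 (SE 0.31, adjusted P = 0.0442) and 1.21 (SE 0.31, adjusted P = 0.00948). In skeletal muscle this probe was at 12.17, 12.45 and 12.36 in G and between 12.64 and 12.94 in groups A and C, also without overlap. The other probe of Cdh13, A_52_P504883, pointed the other way in skeletal muscle and was not called. It differed there by -0.44 in A vs G (SE 0.23, limma, adjusted P = 0.248) and -0.53 in C vs G (SE 0.23, adjusted P = 0.171). In aorta alone it was 0.46 higher in A than in G (SE 0.23, adjusted P = 0.197), also not called. Over the 21 aorta arrays Cdh13 was low where the smooth muscle marker sum was low: the 5 lowest sums were 14.77, 17.15, 17.46, 17.67 and 18.22, with Cdh13 at 9.52, 12.39, 11.87, 12.14 and 12.20. The 12 smooth muscle probes themselves had a median difference of 1.80 in A vs G and 2.15 in C vs G in aorta, with 8 and 11 of them called higher, and 0.76 and 1.12 without replicate 1 of G, with 0 and 3 called. The part of smooth muscle RNA in the difference of Cdh13 was not tested.

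Beta protocadherins were 2 of the 5 members called in A vs G and 5 of the 6 in C vs G. Tested were 15 beta probes among 59 members in A vs G and 20 among 76 in C vs G. Of all probes 4.66% and 5.61% passed there. Pcdhb4 was at 6.36, 6.41 and 6.42 in healthy aorta, at 7.23, 7.60 and 7.63 in group A and at 7.06, 7.51 and 7.37 in group C. In skeletal muscle it was at 6.55, 6.60 and 6.24 in G, at 7.29, 6.93 and 7.18 in A and at 7.24, 7.29 and 7.10 in C. In both tissues all 18 KK/Ay arrays (6.86 to 7.63 in aorta and 6.87 to 7.46 in skeletal muscle) lay above the 3 of group G. The difference was 0.88 in A vs G (SE 0.14, 1.84-fold, adjusted P = 0.00358) and 0.83 in C vs G (SE 0.12, 1.78-fold, adjusted P = 0.00195). It was 1.04 and 0.93 without slides 1 to 3, where the 1 healthy skeletal muscle array left is the lowest of the 3. On slide 3, A was 0.84 higher than G in aorta. Pcdhb4 and probe A_52_P683146 of Cdh11 were called in A vs G and in C vs G also with each of the 12 arrays left out in turn.

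Pcdhb16, by probe A_52_P24851, was 0.49 higher in A (SE 0.11, adjusted P = 0.0274) and 0.46 higher in C (SE 0.11, adjusted P = 0.0337). Its healthy arrays were at 6.40, 6.30 and 6.37 in aorta and 6.17, 6.04 and 6.35 in skeletal muscle, against 6.86 to 7.06 and 6.39 to 6.64 in groups A and C. The groups did not overlap in either tissue, but without slides 1 to 3 the adjusted P values were 0.109 and 0.139. In C vs G also Pcdhb20 (0.70, SE 0.18, adjusted P = 0.0444) and Pcdhb7 (0.55, SE 0.13, adjusted P = 0.0353) passed. Without slides 1 to 3 Pcdhb20 passed in both comparisons (0.69 and 0.71), and Pcdhb7 did not (adjusted P = 0.0528 in C vs G). Pcdhb6 was called in C vs G (1.06, SE 0.28, adjusted P = 0.0492), with G at 5.51, 7.34 and 6.08 in aorta and 5.88, 5.63 and 6.67 in skeletal muscle. The high healthy array of each tissue is the 1 that lies off slides 1 to 3. Without those slides the difference of Pcdhb6 was 0.24 (adjusted P = 0.297), so its call rests on them.

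In aorta alone 9 of the 20 beta probes were higher in C than in G and 5 of 14 in A than in G, where 19.6% and 14.2% of all probes passed. Without replicate 1 of healthy aorta this was 5 of 20 and 2 of 14, beside 11.7% and 7.79% of all probes. With slides 1 to 3 as a term it was 6 of 20 and 5 of 14, where 14.5% and 16.4% of all probes passed. Pcdhb20 (0.95) and Pcdhb14 (1.0) were called in C vs G in each of these 3 fits, and Pcdhb6 (1.32) was called neither without that array (0.92, adjusted P = 0.116) nor with the slide term. Pcdhb14 was at 7.37, 7.38 and 8.10 in healthy aorta, at 8.85, 8.23 and 8.5 in A and at 8.54, 8.71 and 8.61 in C, with no overlap. In A vs G its call was lost without replicate 1 of healthy aorta (0.79, adjusted P = 0.0827). Of the gamma probes 2 of 9 were higher in C vs G, near the 19.6% of all probes, and 1 of 9 without that array. Both lie in the shared exons, A_51_P474518 (1.09) and A_51_P470769 (0.69). No alpha probe passed in either comparison (4 were tested in A vs G and 5 in C vs G). Only over both tissues with slides 1 to 3 as a term was Pcdha9 called higher in C than in G (0.59), where 13.3% of all probes passed.

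The non-clustered protocadherins went both ways. Pcdh18, which acts in the migration of embryonic cells, was 0.76 higher in A than in G (SE 0.19, adjusted P = 0.0452). Its values were 6.05, 6.84 and 6.75 in G and 7.52, 7.32 and 7.54 in A in aorta, and 7.48, 7.68 and 6.77 in G and 8.18, 7.69 and 7.88 in A in skeletal muscle. Group A lay above G in both tissues, by as little as 0.01 between single skeletal muscle arrays. Without slides 1 to 3 the difference was 0.89 in A vs G and 0.78 in C vs G. The 1 healthy skeletal muscle array left there is the lowest of the 3 (6.77), and the 1 healthy aorta left is the highest (6.84). Pcdh17, a protocadherin of axon tracts and synapses, was the 1 member called lower in A vs G (-0.93, SE 0.22, adjusted P = 0.0326, probe A_52_P111031). It was at 9.21, 7.97 and 8.83 in G and 7.88, 7.78 and 7.84 in A in aorta, and at 8.54, 8.17 and 7.53 in G and 7.25, 6.82 and 7.09 in A in skeletal muscle. The groups did not overlap, but the lowest healthy array of each tissue is the 1 off slides 1 to 3, and without those slides the difference was -0.33. With those slides as a term in the fit of 14 means it was -0.73 and was called, where 19.8% of all probes passed. Pcdh7 was higher in aorta alone, by 1.23 in A vs G (SE 0.38, adjusted P = 0.0253) and 1.5 in C vs G (SE 0.38, adjusted P = 0.00531, probe A_51_P260740). Without replicate 1 of healthy aorta it did not pass in A vs G (1.19, adjusted P = 0.0841) and passed in C vs G (1.46, adjusted P = 0.0226). Pcdh20 fell by 0.70 in aorta in A vs G (SE 0.22, adjusted P = 0.0315). With slides 1 to 3 as a term it was called lower over both tissues in A (-0.53) and in C (-0.57), where 19.8% and 13.3% of all probes passed.

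Of the members set down for description whatever their values, Cdh3 (P-cadherin), Cdh6, Cdh16, Cdh23, Pcdh1, Pcdh9, Pcdh10 and Pcdh19 passed in neither comparison with G, over both tissues or within one, as far as they were tested. With slides 1 to 3 as a term, where 19.8% of all probes passed in A vs G over both tissues, Cdh6 (0.48), Cdh23 (0.36) and 1 probe of Pcdh19 (0.40) were called higher in A. That probe of Pcdh19 was then also called within skeletal muscle (0.53, with 10.4% of all probes) and the other within aorta (0.63). Cdh1 and Cdh2 were not tested in A vs G, since no set of those groups had them well above background throughout, and did not pass in C vs G. Cdh1, the E-cadherin of epithelia, was low on most arrays, at 5.29 to 6.89, and stood out on 5: 10.03 in replicate 1 of aorta of group F, 8.87 and 8.32 in replicates 1 and 3 of healthy skeletal muscle, 8.28 in replicate 2 of skeletal muscle of group A and 7.79 in replicate 2 of skeletal muscle of group C. Summed markers of mesothelium and epithelium were highest in the same replicate 1 of healthy skeletal muscle, at 13.43 against 8.59 to 11.12 elsewhere, and their part was not tested. Pcdh15 had no probe among the members. Pcdh12, a protocadherin of endothelium, ranged in probe A_52_P515769 from 7.30 to 9.44 over the healthy aortas and from 6.77 to 9.03 over the healthy skeletal muscles, wider than either of groups A and C, and passed in neither comparison. In the fit of 14 means with slides 1 to 3 as a term both of its probes were called higher in A than in G, by 1.04 (SE 0.30) and 0.41 (SE 0.14).

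Partners of the cadherins were read from a list of 16 genes of catenins and plaque proteins, 15 of them on the array. In aorta alone 10 of its 27 probes were higher in A than in G (median 0.59) and 10 of 29 were higher in C (median 0.46), and none was lower. Of all probes 14.2% and 19.6% passed there. In C these were 2 probes each of Arvcf (1.72 and 1.05), Pkp4 (1.77 and 1.27), Vcl (1.28 and 1.02) and Ctnnal1 (0.68 and 0.55), and 1 each of Ctnna3 (1.13) and Ctnnb1 (0.55), the gene of beta-catenin. Leaving out replicate 1 of healthy aorta, 1 of 27 and 1 of 29 passed, beside 7.79% and 11.7% of all probes, so these counts rest on that array. In skeletal muscle none passed in either comparison. Of the cadherin superfamily outside the numbered genes (27 genes on the array), 6 of 22 probes were higher in A and 6 of 24 in C in aorta, beside 14.2% and 19.6% of all probes. Among them in C were Fat1, Fat4, Clstn1 and Dchs1. Without replicate 1 of healthy aorta 1 of 22 passed in A, higher, and 4 of 24 in C, 3 higher and 1 lower, beside 7.79% and 11.7% of all probes. Dchs1, a giant cadherin that binds Fat4, was by probe A_51_P394558 higher over both tissues, by 0.90 in A (SE 0.18, adjusted P = 0.0138) and 0.78 in C (SE 0.17, adjusted P = 0.0206), while its other probe was at 0.01 in A vs G (SE 0.18). Of the repressors of cadherin genes and the proteases that cut cadherins (11 genes on the array), 4 probes were higher and 1 lower in aorta of 14 in A vs G and of 16 in C vs G, where 14.2% and 19.6% of all probes passed. Without replicate 1 of healthy aorta 3 of 14 and 1 of 16 passed, all higher.

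Markers of other cell types moved with the groups in aorta. The summed fibroblast markers lay between 15.82 and 16.02 in the 3 healthy aortas and between 16.36 and 17.19 in the 18 KK/Ay aortas, and the Schwann cell markers between 11.90 and 12.90 and between 13.32 and 15.20. Neither list overlapped between healthy and KK/Ay aorta, and their part in the differences of Cdh11, which fibroblasts express, and of Cdh19, a cadherin of the Schwann lineage, was not tested. Cdh19 was above background in 0 of 3 healthy aortas by the scanner mark and was called higher in C there (at least 1.46-fold, adjusted P = 0.0478), but neither without replicate 1 of healthy aorta (adjusted P = 0.253) nor with slides 1 to 3 as a term. In skeletal muscle the fibroblast sum was between 15.34 and 16.78 in G and between 15.80 and 16.53 in KK/Ay mice, so it overlapped there, where Cdh11 did not overlap between A or C and G. Of 9 endothelial probes 1 was called higher in A vs G in aorta and 0 in C vs G. Summed skeletal muscle fibre genes were at 19.83 to 20.34 in skeletal muscle and at 11.59 to 19.22 in aorta, where replicate 2 of group A (19.22) and replicate 1 of group F (18.08) were the highest.

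**Figure D3:**
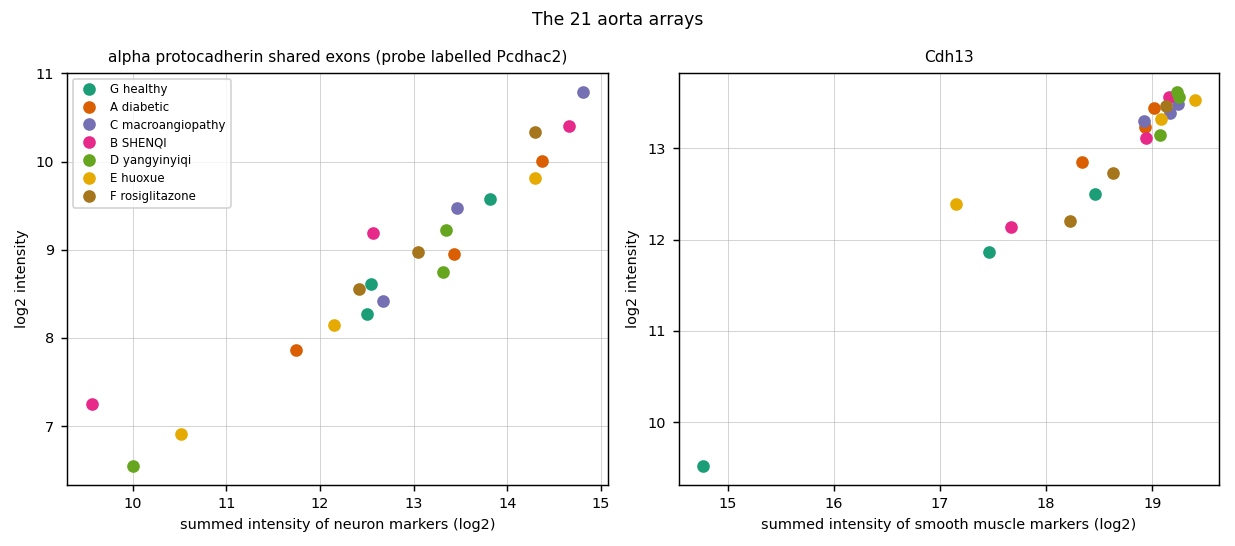
The log2 intensity of the alpha shared-exon probe A_52_P404535 against the summed neuron markers (left) and of Cdh13 against the summed smooth muscle markers (right), 1 point per aorta array, coloured by group. On the left the 3 arrays with the lowest neuron sums (9.56, 10 and 10.51) have the 3 lowest values (7.25, 6.55 and 6.91), and they belong to groups B, D and E; on the right replicate 1 of healthy aorta lies alone at 14.77 and 9.52.

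The alpha protocadherins varied among the aortas of each group, and arrays high in neuron markers were high in them. On the 5 aorta arrays with the highest neuron sums (14.81, 14.66, 14.37, 14.30 and 14.29) the shared-exon probe A_52_P404535 was at 10.79, 10.40, 10.01, 9.81 and 10.34, and these arrays belong to groups C, B, A, E and F. On the 4 with the lowest (9.56, 10, 10.51 and 11.74) it was at 7.25, 6.55, 6.91 and 7.86. The neuron list (8 probes) was not called in A vs G or C vs G in any probe. The part of these markers in the spread was not tested.

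The addition of high-fat diet and L-NAME to diabetes is read from C vs A, in which 0 of 75 members and 0% of all probes passed an adjusted P value below 0.05 in limma's test. At an unadjusted P value below 0.05 it was 3 of 75, where 5.03% of all probes passed. The smallest P values belonged to Pcdha9 (0.37, SE 0.12, adjusted P = 0.894), Pcdha6 (0.35, SE 0.12), Cdh4 (-0.26, SE 0.11, probe A_52_P181943), Pcdh12 (-0.24, SE 0.11, probe A_52_P515769) and Cdh23 (-0.17, SE 0.09). Pcdha6 was at 5.72, 5.53 and 5.90 in aorta of group A and at 6.20, 6.32 and 6.09 in C, without overlap, and at 5.01, 4.92 and 5.43 against 5.32, 5.15 and 5.52 in skeletal muscle, with overlap. No member had arrays of C and A apart in both tissues in the same direction. The members' median was 0.03 and that of all probes 0.

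**Figure D4:**
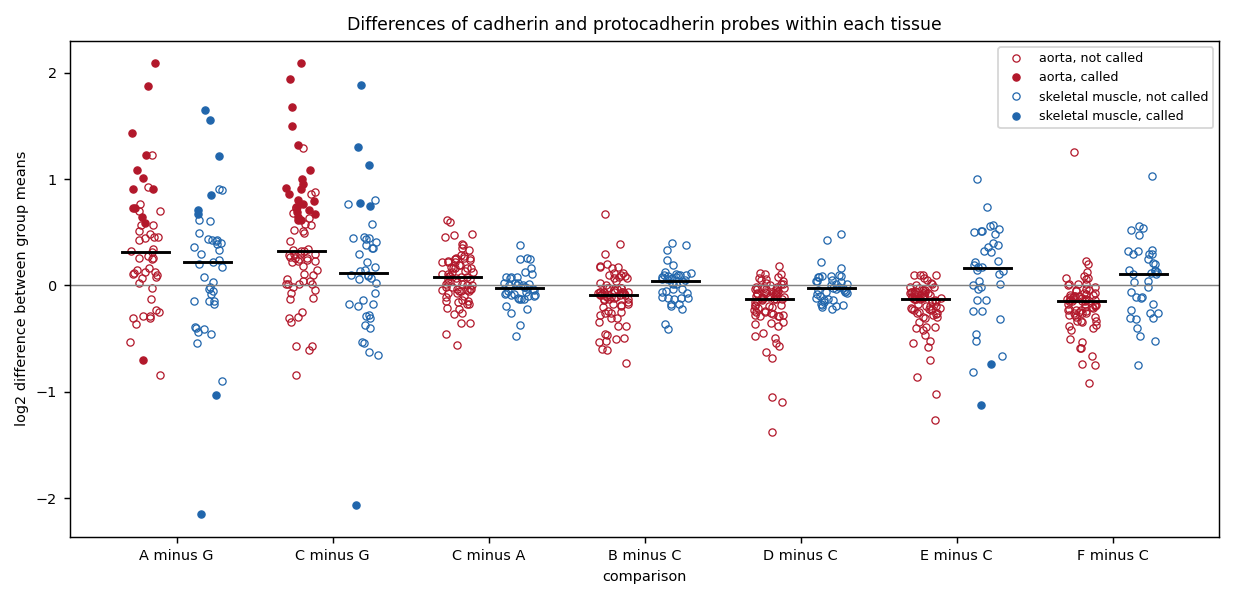
The log2 difference of each member probe within aorta and within skeletal muscle in each of the 7 comparisons, from a fit of 14 means over 42 arrays; filled points passed an adjusted P value below 0.05 and black lines are medians. The comparisons with G hold all but 2 of the called points, and the other 2 lie in skeletal muscle of E vs C, all of whose group E arrays are on slide 1.

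Each treatment was compared with the untreated model, group C, and these 4 comparisons share the 6 arrays of C. With SHENQI compound (B vs C) 0 of 75 members passed and 0% of all probes, and 3 passed at the unadjusted threshold, where 3.14% of all probes did. Cdh19 had the smallest P value (-0.56, SE 0.17, adjusted P = 0.999 in limma's test). Its aortas were at 5.59, 5.97 and 5.69 in B and at 6.03, 6.70 and 6.0 in C, and B lay below C there. It was followed by Pcdhga9 (0.31, SE 0.13, probe A_52_P667913), Cdh4 (0.25, SE 0.11, probe A_52_P181943), Pcdhb4 (-0.19, SE 0.10) and Pcdhb15 (-0.24, SE 0.13, probe A_51_P159835). With the yangyinyiqi formula (D vs C) 0 of 76 members and 0% of all probes passed, and 2 at the unadjusted threshold, where 3.61% of all probes did. The smallest P values were those of Pcdh10 (-0.61, SE 0.25, probe A_51_P441234), Pcdh9 (-0.36, SE 0.16, probe A_51_P475704), Cdh22 (-0.31, SE 0.15), Pcdhb4 (-0.21, SE 0.10) and Pcdh17 (-0.29, SE 0.14, probe A_51_P131747) in limma's test. Cdh11 was at 11.05, 11.22 and 11.45 in aorta of D, below the 3 arrays of C without overlap, and at 9.91, 10.57 and 10.66 in skeletal muscle, with overlap.

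With the huoxue formula (E vs C) 0 of 75 members and 0% of all probes passed, and 7 members at the unadjusted threshold, 1 of them higher, where 17.5% of all probes did. Skeletal muscle of E lies on slides 1 to 3 and that of C on others, so the treatment and the slides cannot be told apart in that tissue. Pcdhb6 (-0.47, SE 0.15, adjusted P = 0.18 in limma's test) had the smallest P value, and also a large difference between those slides. Its skeletal muscle arrays were at 6.24, 5.99 and 5.92 in E and at 7.04, 6.79 and 6.75 in C, while its aortas overlapped (7.35 to 7.78 and 7.45 to 7.75). Next came Pcdhga9 (-0.41, SE 0.14, probe A_52_P667913), Pcdhb15 (-0.45, SE 0.15, probe A_51_P159835), Pcdh17 (-0.52, SE 0.18, probe A_52_P111031) and Pcdhb18 (0.29, SE 0.10). Pcdh17 was the 1 member with E below C in both tissues without overlap, where 2.05% of all probes had no overlap, at 7.78, 7.51 and 7.27 against 8.58, 7.82 and 7.90 in aorta and at 6.97, 6.91 and 7.05 against 7.14, 7.14 and 8.03 in skeletal muscle. Within skeletal muscle 2 of 38 members passed, where 9.57% of all probes did. Cdh11 fell by 0.74 (SE 0.19, adjusted P = 0.0119), with 9.81, 9.40 and 9.86 in E. Pcdhb17 (probe A_51_P337771) fell by 1.12 (SE 0.27, adjusted P = 0.007), to a level at least 1.65-fold lower than in C. With slides 1 to 3 as a term 0 of 38 passed, where 0.323% of all probes did, and Cdh11 was at -0.64 (SE 0.24, adjusted P = 0.483).

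With rosiglitazone (F vs C) 0 of 76 members and 0.00704% of all probes passed, and 15 members (4 higher) at the unadjusted threshold, where 14.3% of all probes did. Cdh11 was the nearest to passing (-0.38, SE 0.08, adjusted P = 0.109 in limma's test). It was at 11.08, 11.25 and 11.29 in aorta of F and at 9.79, 10.03 and 10.03 in skeletal muscle, below all arrays of C in each tissue (11.48 to 11.50 and 10.34 to 10.52) and above all of G. With slides 1 to 3 as a term the difference was -0.33 (SE 0.15, adjusted P = 0.458). Its other 2 probes differed by -0.22 (SE 0.15) and 0.14 (SE 0.15). Pcdhga9 (-0.57, adjusted P = 0.136, probe A_52_P667913), Pcdh1 (0.62, adjusted P = 0.137), Cdh18 (-0.45, adjusted P = 0.152, probe A_52_P630905) and Pcdhb6 (-0.46, adjusted P = 0.184) followed. In 4 members the arrays of F lay below those of C in both tissues, where 2.89% of all probes had no overlap, namely Cdh11, Pcdh12 (probe A_52_P515769), Pcdh11x (probe A_52_P470605) and Pcdhga9 (probe A_52_P667913), and in none above. Pcdh12 was at 7.35, 8.36 and 8.45 in aorta of F against 9.31, 8.89 and 8.70 in C, and at 8.56, 8.36 and 8.48 against 8.82, 8.64 and 8.91 in skeletal muscle. Within skeletal muscle 0 of 39 members passed, where 0.267% of all probes did.

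The differences of E and F from C varied with tissue for a few members. The interaction was called in 2 of 75 members in E vs C, where 5.79% of all probes passed, and in 5 of 76 in F vs C, where 3.47% did. The 5 in F vs C were 3 probes of Pcdhga9, Pcdhb15 (probe A_51_P159833) and Pcdh1, and the 2 in E vs C were probes of Pcdhga9, all with the difference lower in aorta than in skeletal muscle. Probe A_51_P474568 of Pcdhga9 was well above background on only 6 of 21 skeletal muscle arrays, and A_51_P159833 on 3 of 21. The other Pcdhga9 probes called in F vs C, A_51_P470769 and A_51_P474518, overlap by 40 bases and are not separate measurements. Probe A_51_P474518 of Pcdhga9 was at 11.49, 11.68 and 12.04 in aorta of F against 12.43, 12.40 and 12.63 in C, and at 11.57, 11.23 and 11.26 against 11.03, 11.10 and 11.03 in skeletal muscle, on opposite sides of C without overlap. With slides 1 to 3 as a term, 0 of 75 in E vs C and 0 of 76 in F vs C passed, where 0.032% and 0.0246% of all probes did. The interaction was called in 0 members in C vs A, B vs C and D vs C.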

How the data were processed

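The authors put total RNA of 42 samples on Agilent arrays of 1 colour, on 11 slides. The deposited intensity files, made with Feature Extraction 10.7 per the labels, give 45018 spots per array, 1639 of them controls; 8 carry all columns and 34 a shorter set. A deposited table of their own log2 values (median 5.36) was an alternative. Groups were taken from the sample labels.

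Median intensities were corrected with normexp (offset 0) in limma 3.58.1 under R 4.3.3 and quantile normalized over 42 arrays. Controls were then dropped, irregular spots set to missing and spots of a probe averaged. A probe was tested when some compared set had it well above background throughout its 3 arrays. Probes, not gene averages, were fitted with lmFit and eBayes, P values were adjusted by Benjamini-Hochberg over all probes tested, and calls were made at 0.05. The methods' threshold was the unadjusted P value. An "at least" fold sets the brighter mean against the lowest signal well above background.

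The members, lists and alternatives were chosen with earlier results of these data known. Named were all called members (above 12, the 6 largest each way), with fewer than 3 called also the 5 smallest P values, all called interactions and a list of 20 genes. The fit was tested on simulated data. The number of arrays limits the precision. P values cover the spread between 3 mice.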

Additional observations from a re-analysis of the deposited data

Results flagged for a closer look

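The difference of Cdh15 between C and G differed between the tissues by 4.01 (aorta minus skeletal muscle, SE 0.57, adjusted P = 0.045 in the limma interaction test), higher in C in all 3 aorta arrays and lower in all 3 skeletal muscle arrays. In E vs C the probes A_51_P470769 (-0.83, adjusted P = 0.0162) and A_51_P474568 (-0.56, adjusted P = 0.0453) of Pcdhga9 differed between the tissues in that test. In F vs C these were Pcdhb15 by probe A_51_P159833 (-1.09, adjusted P = 0.0429), Pcdh1 (-0.83, adjusted P = 0.0469) and the Pcdhga9 probes A_51_P470769 (-1.15, adjusted P = 0.0285), A_51_P474518 (-1.05, adjusted P = 0.0253) and A_51_P474568 (-0.85, adjusted P = 0.00926), again by limma. In skeletal muscle probes A_51_P159833 and A_51_P474568 were mostly not well above background, and all skeletal muscle arrays of E and F lie on slides 1 to 3. None of these 7 was called in the fit of 14 means, either with those slides as a term or without. With the term Pcdh1 in F vs C was at 0.52.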

How the results depend on the processing

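Over 71 results and 2236 alternatives, 1945 kept their direction and side of the threshold (or stayed within 1.5 times the count), 187 lost the threshold, 1 gained it, 91 counts moved and 12 values reversed; the cause was not tested. Leaving out slides 1 to 3 or the first healthy aorta array, the slides as a term, and interactions with an array left out were chosen after seeing the data. Shares of all probes that passed are given first. In A vs G they were 4.66%, and 14.2% and 9.81% in aorta and skeletal muscle alone. With slides 1 to 3 as a term they were 19.8%, 16.4% and 10.4% (14 means, aorta, skeletal muscle). In C vs G they were 5.61%, 19.6% in aorta alone and 11.7% there without the first healthy array. With the slide term they were 13.3% and 14.5% (14 means, aorta). For the interaction with that term they were 1.47% in A vs G and 4.94% in C vs G. Members called in A vs G (5) were 2 without the tissue term, 24 in the fit of 14 means, 13 in aorta and 8 in skeletal muscle alone, 11 in aorta with slide as a fixed block, 25, 17 and 10 with slides 1 to 3 as a term (14 means, aorta, skeletal muscle), 8 without those slides, 25 unadjusted and 2 to 6 with an array left out (2 without replicate 3 of aorta or 1 of skeletal muscle of G, or without replicate 2 or 3 of aorta or any skeletal muscle array of A). In C vs G (6) they were 3 with the stricter filter, 2 without the tissue term, 2 with slide as a random block, 22 in the fit of 14 means, 21 in aorta alone, 11 there without the first healthy array, 18 and 18 with slides 1 to 3 as a term (14 means, aorta), 27 unadjusted and 2 to 9 with an array left out (2 without replicate 2 of aorta or 1 or 2 of skeletal muscle of C, 3 without replicate 1 of skeletal muscle of G, 1 or 3 of aorta or 3 of skeletal muscle of C). Unadjusted counts elsewhere were 3 (C vs A), 3 (B vs C), 2 (D vs C), 7 (E vs C) and 15 (F vs C) against 0; in E vs C skeletal muscle alone gave 2, and in F vs C an offset of 50 gave 1. The interaction counts were, for A vs G (0), 1 in 14 means, 1 with the slide term, 4 without slides 1 to 3 and 0 to 1 with an array left out. For C vs G (1) they were 3, 4, 3 and 0 to 1 in that order, and 0 with slide as a random block. For E vs C (2) and F vs C (5) they were 0 and 0 in 14 means, 6 and 9 with slide as a random block, 0 and 0 with the slide term, and 1 to 6 and 1 to 5 with an array left out. Between tissues (61) the stricter filter left 15 of 21 probes, gene averages 38 of 50 genes, and an array left out 61 to 62. Reversed were Cdh23 in C vs A (0.34, slide fixed, skeletal muscle) and Pcdhb6 in E vs C (0.01, slide fixed, aorta). With slides 1 to 3 as a term, Pcdhb6 reversed in C vs G (-0.09, skeletal muscle), E vs C (0.20 in 14 means, 0.53 in skeletal muscle) and F vs C (0.21, 0.59), Pcdh1 in F vs C (-0.06, -0.32; interaction 0.52), and in skeletal muscle Pcdhb18 in E vs C (-0.06) and probe A_52_P667913 of Pcdhga9 in F vs C (0.05).

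With the replicate number as a block, calls in A vs G went to 3 and in C vs G to 2, and interactions in C vs G to 0, E vs C to 1 and F vs C to 1. The labels do not say that numbers pair samples. Deviations of same-numbered samples of compared groups in the same tissue correlated from -0.5 to 0.61 over 42 pairs, 9 over 0.1. Those of same-numbered aorta and skeletal muscle of a group correlated from -0.42 to 0.15 over 21 pairs, 2 over 0.1. Samples were not treated as pairs, so the fits over both tissues do not account for tissues that may come from the same mouse.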
